A study of Mus musculus with 20 samples.

Results

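Macrophages that carry Lyve1, Cd209f, Cd209g and Fcna were followed in single-cell RNA-seq libraries of mouse interscapular brown adipose tissue (iBAT). A cell was counted as a member when its corrected UMIs for Lyve1, Cd209f, Cd209g and Fcna summed to at least 3 and those for C1qa, C1qb and Csf1r to at least 2. Gpnmb, Trem2, Atp6v0d2 and Syngr1, which mark lipid-associated macrophages, had to sum to less than 4, and the lymphocyte genes Cd79a and Cd3e to less than 1. Cells also needed 500 to 4000 genes, under 10% mitochondrial UMIs and under 15000 UMIs. The rule gave 628 members among 50165 Lin+ cells that passed these limits (1.25%), or 4.45% of the 14110 Lin+ cells with the macrophage genes. None of the 59600 Lin- cells was a member, which allows a share of up to 0.00503%.

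Tissue macrophages with these genes are known as resident cells that lie along vessels and nerves. Lyve1 encodes a receptor for the matrix sugar hyaluronan, Cd209f and Cd209g encode lectins that bind glycans, Fcna encodes a ficolin that recognises microbial sugars, Folr2 encodes a folate receptor, and Ccl8 encodes a chemokine that attracts monocytes and T cells. Such cells are commonly described as phagocytic, with scavenger receptors and complement genes, and their display of antigen on MHC class II differs between populations.

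The study separated the stromal vascular cells of iBAT with magnetic beads into a fraction bound by antibodies to immune lineage markers (Lin+) and one that was not (Lin-), and 20 libraries were made, 10 of each fraction. Each library pooled 3 to 4 mice aged 8 to 14 weeks, so that the pool is the unit of replication and p-values are computed over pools. The C57 libraries came from male C57BL/6J mice held at 24 °C (RT, 2 libraries), exposed to 6 °C for 4 days (COLD, 2 libraries) or infused by osmotic pump for 4 days with 0.75 nmol per hour of CL316,243 (CL, 2 libraries), a ligand of the β3 adrenergic receptor. The other 4 Lin+ libraries came from female Adrb1 fl/fl mice, 1 library per genotype and temperature. All of these mice received tamoxifen. KO mice carried Pdgfra-CreER, which deletes the β1 adrenergic receptor gene in cells that express Pdgfra, and WT mice were littermates without Cre. The macrophages are therefore not the cells in which the deletion was directed, and Adrb1 itself was at 0 to 11.3 CPM (counts scaled to the same total in every library) in the members of all 10 libraries. The RT libraries of the Adrb1 line were made with kit version 3 and its cold libraries, like all C57 libraries, with version 2, so that kit and cold cannot be told apart in this line.

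The 10 Lin+ libraries held between 18 and 250 members each, whose corrected UMIs summed to 106099 to 892766 per library. The median member had 2499 to 7834 UMIs and 1155 to 2830 genes. No member barcode was shared between any of the 45 pairs of Lin+ libraries. Library CL replicate 1 stood apart, with 250 members and a median mitochondrial share of 0.0561% against 2.22 to 5.72% in the members of the other libraries. Of the 628 members, 90 sat just inside the limit of 3 UMIs, 120 cells sat just outside it, and 405 reached a sum of 6. Another 88 cells were turned away by the lipid-associated genes, 8 by the lymphocyte genes and 3 by the lower limit on genes. The cells turned away by the lipid-associated genes were 25.8 and 13% of those that otherwise met the rule in COLD, 18 and 4.35% in CL, 22.0% (WT) and 5.26% (KO) in cold in the Adrb1 line and 0 to 2.17% in the RT libraries. Among the members, 36 lay in the top 6% of doublet scores of their library.

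The label could be checked on Folr2 and Ccl8, which the rule did not use. Folr2 (chr7:101839988-101857190) summed over members stood at 1487 and 1672 CPM at RT, 1715 and 1896 in COLD, 2105 and 1908 in CL, 1080 (WT) and 1151 (KO) at RT in the Adrb1 line, and 998 and 1473 there in cold. In the 12950 other macrophages of the same libraries, which had less than 1 UMI of the 4 resident genes, Folr2 ranged from 45.4 to 642 CPM, and the median ratio over the 10 libraries was 12.1. Ccl8 (chr11:82115185-82116799) stood at 1022 and 1181 CPM at RT, 2321 and 3873 in COLD, 9491 and 5770 in CL, and 152 (WT RT), 1151 (KO RT), 940 (WT cold) and 2421 (KO cold) in the Adrb1 line, with a median ratio of 7.90 to other macrophages. Both genes were thus higher in members in every library, although Ccl8 varied widely among libraries. These ratios describe the members and carry no test, since the rule set the 2 classes apart.

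The genes of the rule were unevenly spread over its members. Lyve1 (chr7:110850607-110862953) had a UMI in 63.6 and 44.4% of members at RT, 84.8 and 90% in COLD and 63.6 and 56.8% in CL. Fcna (chr2:25624665-25635440) was found in 33 and 31.1% at RT, 73.9 and 95% in COLD and 71.2 and 72.7% in CL. Cd209f (chr8:4102784-4105838) went the other way, with 95.5 and 93.3% at RT, 73.9 and 70% in COLD and 78 and 63.6% in CL. Few members carried all 4 genes, from 13.3% in RT replicate 2 to 45% in COLD replicate 2, while 86.4 to 100% carried at least 2 of them. Members with Lyve1 as their only resident gene made up at most 12.5% in a library. All these shares were counted on all UMIs of each cell, and so depend on depth. The median depth of members was 2499 and 3493 UMIs at RT, 4599 and 6578 in COLD and 3197 and 5789 in CL. In summed counts Fcna stood at 302 and 215 CPM at RT, 419 and 657 in COLD and 497 and 395 in CL. Lymphatic endothelial cells, which also express Lyve1, left few traces. Their 7 markers summed to 0 to 42.4 CPM, with Mmrn1, Reln and Tbx1 at 0 in every library. T and B cells with a resident sum of 3 were 0% in each library.

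**Figure D1:**
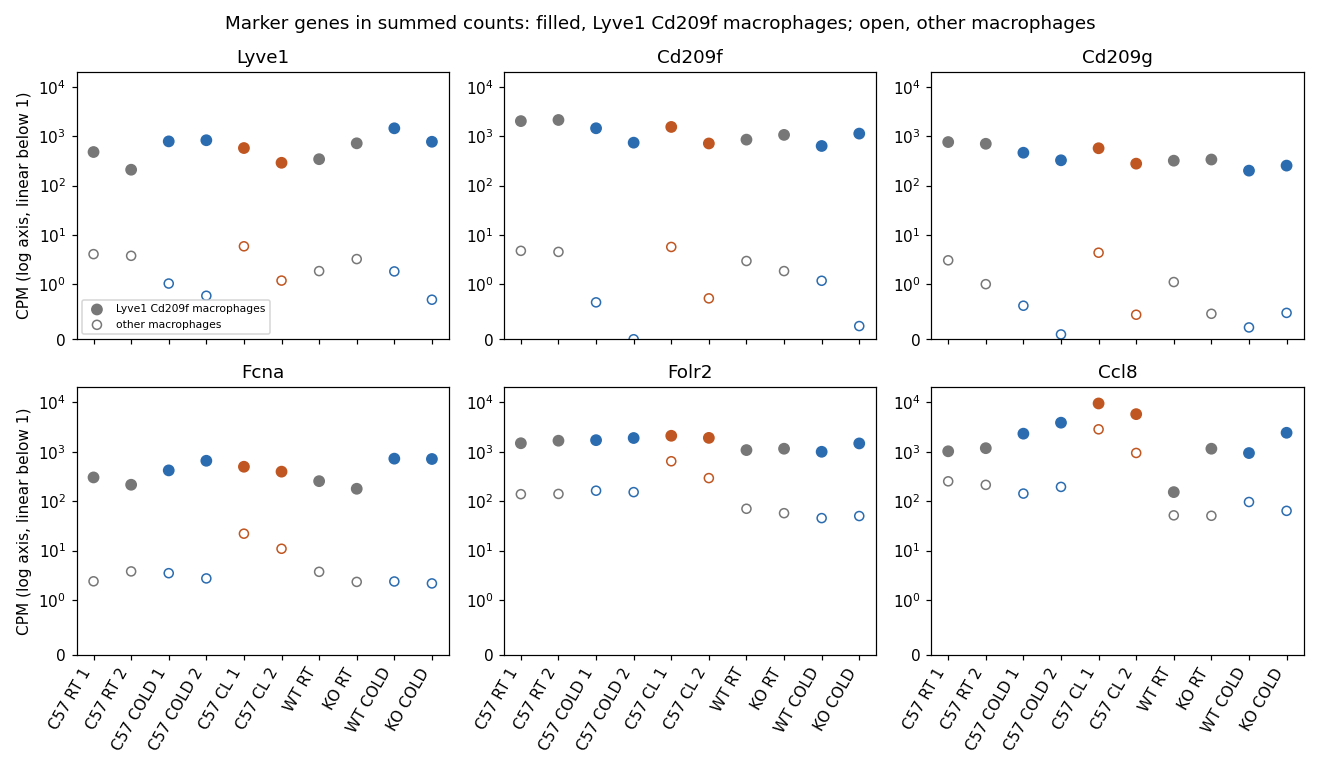
CPM of the 6 marker genes (vertical axis, logarithmic above 1) in counts summed per Lin+ library over Lyve1 Cd209f macrophages (filled) and other macrophages (open). Filled points lie above open points for each gene and library, with a median ratio of 12.1 for Folr2 and 7.90 for Ccl8, which the rule did not use.

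Cd209f and Cd209g are neighbours on chromosome 8 in opposite orientation, and sequences before a start site of each are shown because reads and promoters of such close copies can resemble each other. The 250 bases before the start site that the RefSeq promoter table uses are printed (GRCm38.p6, 5′ to 3′ on the strand of the gene). The gene positions given above span every RefSeq transcript, so that the Cd209g window lies within that span and the Cd209f window overlaps it. In these windows, 1 block of 154 bases was identical between the genes and is in capitals. Cd209f lies on the minus strand (window chr8:4105765-4106014) and Cd209g on the plus strand (window chr8:4134486-4134735).
Cd209f: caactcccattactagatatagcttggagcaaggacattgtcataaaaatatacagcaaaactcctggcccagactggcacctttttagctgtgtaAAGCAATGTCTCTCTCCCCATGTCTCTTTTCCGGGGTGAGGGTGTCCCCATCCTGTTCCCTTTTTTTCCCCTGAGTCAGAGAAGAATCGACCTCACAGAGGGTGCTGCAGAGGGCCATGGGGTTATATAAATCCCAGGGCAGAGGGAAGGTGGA
Cd209g: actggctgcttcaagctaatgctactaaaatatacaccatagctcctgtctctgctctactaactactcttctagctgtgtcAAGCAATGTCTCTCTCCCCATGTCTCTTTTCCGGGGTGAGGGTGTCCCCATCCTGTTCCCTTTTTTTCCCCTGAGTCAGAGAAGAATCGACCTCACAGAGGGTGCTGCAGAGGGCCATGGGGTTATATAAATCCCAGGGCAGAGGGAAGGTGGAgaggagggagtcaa
How reads shared by the transcripts of these paralogs were counted is not given in the sources used here, so the split of counts between Cd209f and Cd209g is uncertain, while their sum is what the rule used.

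Genes outside the rule were ranked by the ratio of CPM in members to other macrophages, as a median over the 10 libraries. Only genes with a median of at least 50 CPM in members were ranked. The most raised were Cd209b (44.6) and Cd209d (43.1), further members of the same lectin family. They were followed by Ednrb (26.3), the endothelin B receptor, Timd4 (24.5), a receptor for phosphatidylserine on dying cells, and C4b (20.3), a complement protein. Folr2 (12.1), Rcn3 (11.8) and Colec12 (10.3), a scavenger collectin, completed the first 8. All 8 were higher in members in 10 of 10 libraries. Of these, Folr2 was the most abundant, with a median of 1579 CPM, followed by Cd209d (506), Ednrb (398) and C4b (232). Cd163, the scavenger receptor for haemoglobin bound to haptoglobin, stood at 352 to 847 CPM in the members. Timd4, often used as a marker of fetal origin, was detected in a minority of cells, in 0 to 21.5% of members thinned to 1500 UMIs, against 0% of T cells. Ccr2, which is on the list of monocyte markers used below, was found in 11.4 to 25% of thinned members at RT. In cold it was found in 0 to 23.3% and in CL in 12.4 and 16.3%. T cells gave 7.24 to 17.9% for Ccr2 and other macrophages 27.4 to 44.9%. The origin of the members was not tested. Thinning draws UMIs at random, so such shares shift somewhat between draws.

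The first comparison asks whether these cells kept their place among Lin+ cells in cold. Members were 2.16 and 1.01% of Lin+ cells in the C57 mice at RT and 0.599 and 0.326% in COLD. In the Adrb1 line they were 1.26% (WT) and 2.05% (KO) at RT and 0.391% and 0.513% in cold. The RT and cold libraries did not overlap in either line. The mean share was 0.457% ± 0.122 (SD, n = 4) in cold and 1.62% ± 0.572 (SD, n = 4) at RT, a 3.54-fold difference (exact permutation test, two-sided, p = 0.0286, the smallest that 4 against 4 libraries can give). That test exchanges libraries across the lines, and the Adrb1 RT libraries among the 4 were made with kit version 3. With COLD and RT exchanged only within each line, the exact permutation test gave p = 0.0556, which is the smallest its 36 arrangements allow. Within each line the difference was of like size, 1.12 percentage points lower in C57 mice and 1.20 lower in the Adrb1 line, although 2 against 2 libraries cannot reach 0.05 in the exact test. Of macrophage-gated cells, members were 8.02% at RT and 1.86% in cold, with p = 0.0286 by the exact permutation test across the lines and 0.0556 within them. These are shares, so fewer members and more of the other cells cannot be told apart. Lipid-associated macrophages, with a sum of 4 or more for the 4 genes that mark them, were 0.319 and 0.358% of Lin+ cells at RT in C57 mice and 20.5 and 17.5% in COLD.

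The share in CL differed between its 2 libraries. Members made up 4.43% of Lin+ cells in CL replicate 1 (exact 95% binomial interval 3.91 to 5.00%, counting error only) and 0.863% in CL replicate 2 (0.628 to 1.16%). The CL libraries lay on either side of both RT libraries, at a mean of 2.65% ± 2.52 (SD, n = 2) against 1.58% ± 0.817 (SD, n = 2), and the exact permutation test gave p = 1.0. Without CL replicate 1 the difference turned from 1.06 points higher to 0.721 points lower. Lipid-associated macrophages stood at 18.9 and 5.22% of Lin+ cells in the CL libraries.

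**Figure D2:**
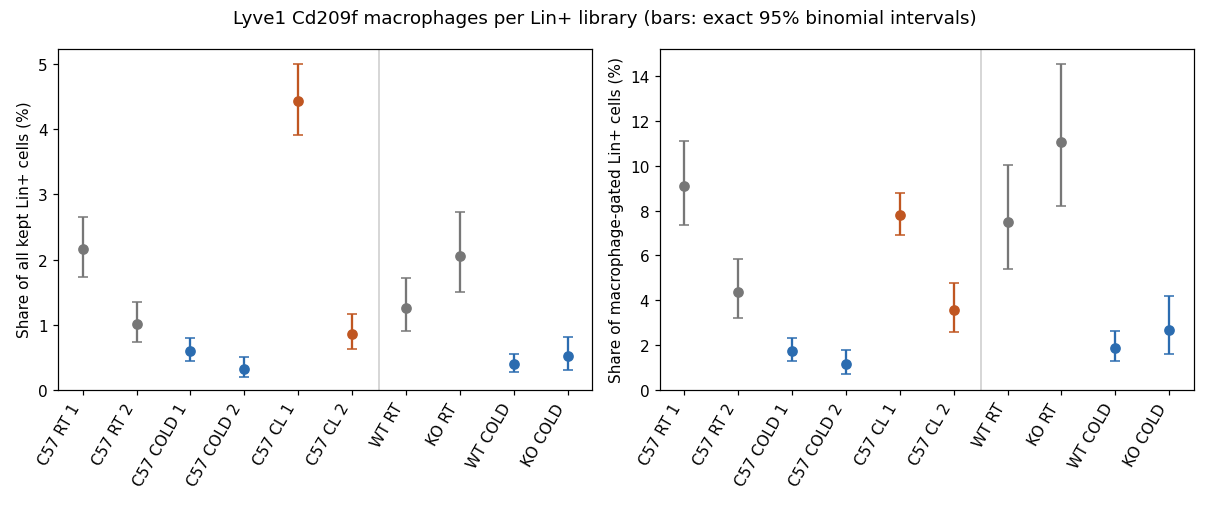
Members as a percentage of Lin+ cells and of macrophage-gated Lin+ cells in each library, with exact 95% binomial intervals as bars. The 4 cold libraries (0.326 to 0.599% of Lin+ cells) lie below the 4 RT libraries (1.01 to 2.16%), whereas the CL libraries lie at 4.43 and 0.863%.

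The next comparison concerns antigen display, the function of MHC class II molecules, which present peptides to CD4+ T cells. Cells were thinned to 1500 UMIs, and a cell was counted when H2-Aa, H2-Ab1, H2-Eb1 and Cd74 summed to at least 3. In the C57 mice 91.1 and 93.2% of members passed at RT, 37.2 and 0% in COLD and 28.3 and 72.1% in CL. In the Adrb1 line 80% (WT) and 75.0% (KO) passed at RT, and 23.3% and 37.5% in cold. The cold libraries lay below all RT libraries, with a mean of 24.5% ± 17.6 against 84.8% ± 8.75 (SD, n = 4 each; exact permutation test, two-sided, p = 0.0286, 0.171 after Benjamini-Hochberg adjustment over the 6 features tested). Exchanged only within each line, the exact permutation test gave p = 0.0556, again the smallest possible. Counted on all UMIs of each cell, 92 and 95.6% of members passed at RT, 37 and 0% in COLD and 31.6 and 81.8% in CL. T cells, which should lack these genes, gave 0.742 to 21.3%, at median depths of 1927 to 3769 UMIs. Among other macrophages the shares ranged from 55.6 to 89.4% at RT and from 35.4 to 45% in cold.

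Cells at exactly 0 in these 4 genes, counted in a separate random thinning, were common in the treated libraries. They were 25 of 43 thinned members in COLD replicate 1, all 20 in COLD replicate 2, 137 of 233 in CL replicate 1, 6 of 43 in CL replicate 2, 23 of 30 in WT cold and 9 of 16 in KO cold. At RT they were 5 of 79 and 2 of 44 in C57 mice, 6 of 40 in WT and 7 of 44 in KO. The deposited values had been corrected for cell-free RNA, and whether the correction set some of them to 0 was not tested. H2-Aa, H2-Ab1, H2-Eb1 and Cd74 were listed at 0 in the sum of the 20 members of COLD replicate 2, whereas other macrophages of the same library held H2-Aa at 3261 CPM and Cd74 at 6313 CPM. For a share of 0% among the thinned members of that library, the exact 95% interval reached 16.8%. Leaving this library out, the class II share was 52.1 points below RT in cold, again without overlap (difference -52.1 percentage points, exact permutation test p = 0.0286). H2-Aa, which encodes the alpha chain of I-A, summed to 7469 and 11021 CPM at RT, 2156 and 0 in COLD and 1156 and 3660 in CL, and did not pass the edgeR quasi-likelihood test in cold (log2 fold change -3.31 ± 1.25 SE, adjusted p = 0.15). Cd74, the invariant chain, summed to 15470 and 21512 CPM at RT, 4328 and 0 in COLD and 2119 and 6701 in CL (log2 fold change in cold -3.31, adjusted p = 0.178).

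**Figure D3:**
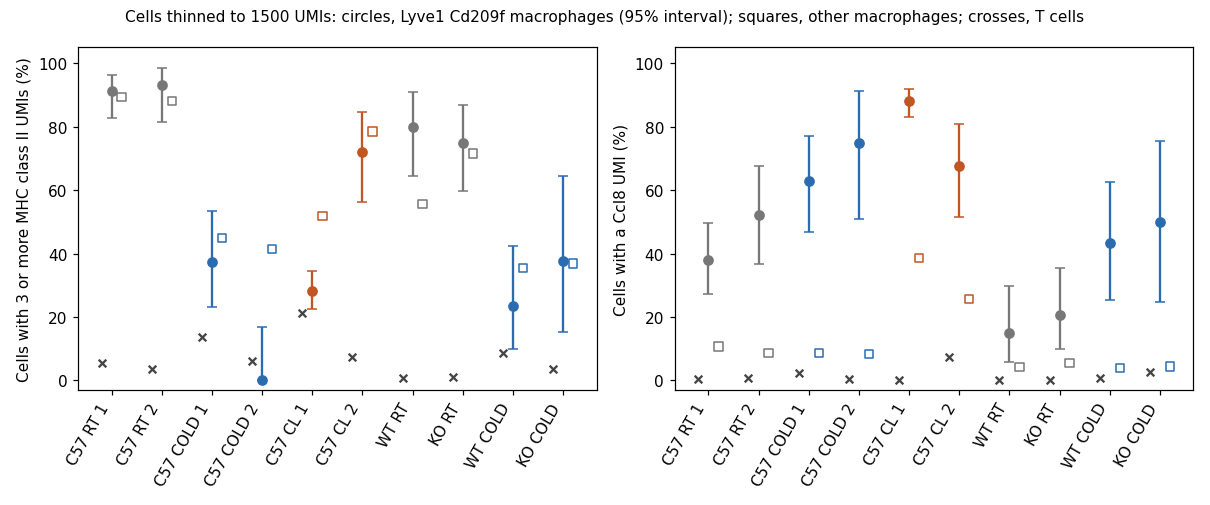
Percentage of cells, thinned to 1500 UMIs, with a class II sum of at least 3 and with a UMI of Ccl8, by library, in members (circles, with 95% intervals), other macrophages (squares) and T cells (crosses). Class II shares of members lie at 75.0 to 93.2% at RT and 0 to 37.5% in cold, and those of T cells at or below 21.3%.

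Counts summed per library over members were then tested across genes in the 6 C57 Lin+ libraries with edgeR's quasi-likelihood test and Benjamini-Hochberg adjustment. COLD differed from RT in 104 of 4057 genes (2.56%), 46 higher (1.13%) and 58 lower (1.43%). In all 104 the COLD and RT values did not overlap. How many of all 4057 genes were free of overlap was not counted, so that this adds no support to the calls. CL differed from RT in 9 genes (0.222%), 3 higher (0.0739%) and 6 lower (0.148%), and COLD from CL in 2 genes (0.0493%). The C57 libraries came from 2 replicate experiments, and with the experiment as a block 99, 5 and 7 genes passed, among them 85 of the 104, 4 of the 9 and both of the 2. COLD and CL share the RT libraries as controls, so their fold changes are set side by side and not correlated. The median log2 fold change over all tested genes was -0.01 in each. The counts rest on 20 and 46 COLD members, and they depended on single libraries: the number of calls in cold fell to 13 when COLD replicate 2 was left out, to 18 for RT replicate 1, to 52 for COLD replicate 1 and to 65 for RT replicate 2. With the rule applied after each cell was thinned to 1500 UMIs, 33 and 10 COLD members and 68 and 31 RT members were left, and 0 of 877 genes passed in cold by edgeR (164 at an unadjusted p under 0.05).

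Interferon-response genes were among those that rose in cold. Of 28 genes on that list 23 were tested, 7 passed higher and none lower, with a median log2 fold change of 0.88 and 19 positive values. Irf7, the factor that amplifies type I interferon signalling, stood at 3.97 and 28.2 CPM at RT, 254 and 524 in COLD and 174 and 190 in CL. Its log2 fold change was 4.48 ± 0.59 (SE) in cold (adjusted p = 0.00942) and 3.50 ± 0.61 in CL (adjusted p = 0.0493). Ifi27l2a, a small interferon-induced membrane protein, was at 1312 and 1604 CPM at RT, 4574 and 9700 in COLD and 4737 and 4531 in CL, and rose by 2.07 ± 0.40 in cold (adjusted p = 0.0228). The COLD values of both genes lay above both RT values, as in every gene called higher in cold. Bst2, which tethers budding viruses, was at 342 and 316 CPM at RT, 1177 and 2058 in COLD and 1021 and 836 in CL (log2 fold change in cold 2.07 ± 0.35, adjusted p = 0.0118). Zbp1, a sensor of Z-form nucleic acids, went from 51.7 and 28.2 CPM to 161 and 280 (2.13 ± 0.42, adjusted p = 0.0243). Ifit1, which binds viral RNA, went from 7.95 and 28.2 CPM to 93.2 and 118 (2.40 ± 0.59, adjusted p = 0.049). Oasl2 and Xaf1 also passed, at 2.0 and 1.71. With the replicate block 6 passed, without Ifit1 (adjusted p = 0.0626) and Oasl2 (adjusted p = 0.0506) and with Rtp4 (adjusted p = 0.0477). In CL, Irf7 was the 1 gene of the list that passed, and 20 of 23 values were positive, with a median of 1.24. Leaving out single libraries, 1 to 4 of the 7 passed in cold, and Irf7 was the only one left when RT replicate 1 or COLD replicate 2 was dropped.

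Of the 7 interferon genes higher in cold 5 had a promoter window, and Ifit1 and Bst2 held the core of the interferon-stimulated response element there. Their sequences are shown for that reason. The windows ran from 250 bases before to 50 after each start site, and the core was searched as GAAA, any 2 bases and GAAA on both strands, overlapping matches included. The bases shown (RefSeq, GRCm38.p6, 5′ to 3′ on the strand of the gene) have the matches in capitals, and TTTC, any 2 bases and TTTC is the core read on the other strand. Ifit1 is on the plus strand (chr19:34640739-34640888) and Bst2 on the minus strand (chr8:71537493-71537642). The Ifit1 stretch runs up to its start site, whereas the Bst2 stretch ends some bases before it.
Ifit1: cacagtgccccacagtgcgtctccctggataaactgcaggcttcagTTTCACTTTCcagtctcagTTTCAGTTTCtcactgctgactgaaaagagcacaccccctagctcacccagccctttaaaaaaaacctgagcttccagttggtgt
Bst2: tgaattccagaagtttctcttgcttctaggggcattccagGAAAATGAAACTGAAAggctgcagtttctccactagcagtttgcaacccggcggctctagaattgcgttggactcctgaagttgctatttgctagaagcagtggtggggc
Ifit1 had 2 matches, the first 104 bases before its start site, and Bst2 had 2 overlapping matches, the first 130 bases before it. The core was found in 3.44% of all 32851 windows and in 13 of the 22 windows of the interferon list (59.1%). Those 22 windows belonged to 21 of the 28 genes of that list, which is defined by interferon induction. A match is a description of the sequence and does not show that a factor was bound.

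Some genes of lipid storage and lysosomes rose as well. Of 26 genes 23 were tested, 5 passed higher and none lower, with a median log2 fold change of 0.74 and 17 positive values. Plin2, the coat protein of lipid droplets, stood at 95.4 and 147 CPM at RT, 826 and 561 in COLD and 521 and 422 in CL, and rose by 2.33 ± 0.33 (SE) on the log2 scale in cold (adjusted p = 0.00942) and by 1.85 ± 0.33 in CL (adjusted p = 0.0493). Ctsd, a lysosomal protease, was at 517 and 446 CPM at RT, 1690 and 2412 in COLD and 2650 and 1327 in CL (1.87 ± 0.38 in cold, adjusted p = 0.0243). The COLD and CL values of both genes lay above their RT values, though only Plin2 passed in CL, and not with the replicate block (adjusted p = 0.0564), where Spp1 did (adjusted p = 0.0118). Lgals1, a galectin, went from 978 and 1028 CPM to 3985 and 4205 (1.81 ± 0.33, adjusted p = 0.0199), and Lgals3 from 338 and 424 to 928 and 1601 (1.51 ± 0.35, adjusted p = 0.0403). Ctsz rose by 1.35 (adjusted p = 0.0342). The rule removes cells with high lipid-associated genes but not cells with low amounts of them, and these moved with the treatment. Trem2 stood at 35.8 and 62.1 CPM in members at RT, 131 and 73.8 in COLD and 240 and 190 in CL, and Gpnmb at 0 in both RT libraries, 21.2 and 7.38 in COLD and 21.3 and 3.80 in CL. The markers of other macrophages (12 of 12 with a count) include 4 genes of the rule. They summed to 839 to 921 CPM over the 4 RT libraries, 952 to 1152 in the 4 cold libraries and 1034 and 1338 in CL. RT did not overlap with either treatment, but the sum holds genes that the rule limits. The 6 tested markers outside the rule had 3 positive and 3 negative values in cold and in CL, with medians of 0.14 and 0.03. The part of these markers in the rise of lipid and lysosome genes was not tested. Leaving out single libraries, 0 to 6 genes of this list passed in cold.

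Among 13 tested chemokine ligands, Ccl6 and Ccl9, both attractants of myeloid cells, passed higher in cold, and the median was 0.14. In CL 1 passed higher, 9 of 13 values were negative and the median was -0.40. Ccl6 went from 1586 and 1073 CPM at RT to 4570 and 5923 in COLD (log2 fold change 1.76 ± 0.37 SE, adjusted p = 0.0294), and Ccl9 from 775 and 723 to 2291 and 2574 (1.48 ± 0.32, adjusted p = 0.0314). Ccl8, one of the markers of these cells, passed in CL (2.65 ± 0.39, adjusted p = 0.0199) and not in cold (1.27 ± 0.37, adjusted p = 0.0775), while COLD against CL did not pass either. By cells, a UMI of Ccl8 was found in 38 and 52.3% of thinned members at RT, 62.8 and 75% in COLD and 88 and 67.4% in CL, against at most 7.51% of T cells. Over both lines, 57.8% ± 14.0 of members had Ccl8 in cold and 31.4% ± 17.0 at RT (SD, n = 4 each; exact permutation test, two-sided, p = 0.0857, adjusted 0.229).

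Of 5 tested chemokine receptors 3 passed lower in cold, with a median of -2.02. Cxcr4, the receptor for Cxcl12, fell from 155 and 181 CPM at RT to 42.4 and 22.1 in COLD (log2 fold change -2.48 ± 0.40 SE, adjusted p = 0.0118). Ccr1 fell from 131 and 90.4 CPM to 33.9 and 29.5 (-2.02 ± 0.42, adjusted p = 0.0294). Cx3cr1, the fractalkine receptor, fell from 87.4 and 96 CPM to 4.24 and 7.38 in COLD, where it rested on 2 counts in all against 39 at RT, a 16.9-fold difference (95% counting interval 4.38 to 145, adjusted p = 0.0158). In CL it stood at 6.72 and 15.2 CPM (-3.46 ± 0.54, adjusted p = 0.0269). All 3 receptors had both COLD values below both RT values, as had every gene called lower in cold. Markers of nonclassical monocytes, cells that are typically high in Cx3cr1, moved with these receptors in C57 mice. All 7 such genes had a count in members, and their summed level was 473 and 395 CPM at RT, 93.2 and 73.8 in COLD and 106 and 152 in CL. In the Adrb1 line this sum was 540 (WT) and 328 (KO) at RT and 116 and 347 in cold, so that RT and cold overlapped. Of the 7 genes 3 were tested in C57 mice, Nr4a1, Pglyrp1 and Itgal. All 3 passed lower in cold, with a median log2 fold change of -3.11 against -0.01 over all genes. Nr4a1, which is given with the immediate early genes below, made up 282 and 198 CPM of the C57 RT sums. The part of these markers in the receptor result was not tested. With the replicate block Itgal did not pass (adjusted p = 0.0551).

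Immediate early genes, which are switched on within minutes by many stimuli and also by cell dissociation, had lower values throughout. All 14 listed genes were negative in cold (median -1.49), and 3 passed. Egr1 fell from 2305 and 1559 CPM at RT to 614 and 605 in COLD (log2 fold change -1.89 ± 0.39 SE, adjusted p = 0.0294), Ier3 fell from 1157 and 904 to 470 and 266 (-1.69 ± 0.37, adjusted p = 0.0314), and Hspa1b, a heat-shock chaperone, fell from 401 and 198 to 106 and 73.8 (-1.94 on the log2 scale). Nr4a1, an orphan nuclear receptor of the same kind of response, fell from 282 and 198 CPM to 59.3 and 36.9 in COLD (-2.48 ± 0.41, adjusted p = 0.0118) and to 61.6 and 95 in CL (-1.86 ± 0.34, adjusted p = 0.0493, and 0.0564 with the replicate block). Fosb passed lower in cold with the block alone (-1.64, adjusted p = 0.0317). In CL none of the 14 passed by edgeR, with a median of -0.96.

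The class II list had 7 of 9 genes tested, all with negative values in cold and a median of -3.01, and 2 of them passed. H2-DMa, a chain of the chaperone that loads peptides onto class II, was at 711 and 757 CPM at RT, 212 and 44.3 in COLD and 209 and 346 in CL (log2 fold change in cold -2.63 ± 0.49 SE, adjusted p = 0.0199). Its partner H2-DMb1 was at 366 and 514 CPM at RT, 136 and 14.8 in COLD and 127 and 262 in CL (-2.57 ± 0.57, adjusted p = 0.0338), and did not pass with the replicate block (-2.50, adjusted p = 0.0512), which left H2-DMa as the 1 class II gene called. All COLD and CL values of the pair lay below the RT values. Without COLD replicate 2 none of the list passed by edgeR and its median was -2.01, and with the cold effect averaged over both lines, where 36% of all genes passed (18.1% lower), 6 of 7 passed lower with a median of -2.25. That average includes COLD replicate 2, whose members had H2-Aa and Cd74 at 0. In the Adrb1 line by itself, where the kit changed with temperature, all 7 values were negative with a median of -1.18. There 1 of the 7, Ciita, passed lower, where 17.7% of all genes did. In CL 0 of the 7 passed, with a median of -2.0. Of 10 tested class I genes H2-Q7 was the only one to pass in cold, and it was higher (1.54 ± 0.36, adjusted p = 0.0445), although its reads may be shared with close copies.

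The promoters of class II genes are known for a shared set of elements that includes the Y box. Windows of H2-Aa, H2-Eb1 and H2-DMb1 are shown as examples of those that held a match. The Y box was searched as TGATTGG on both strands and is in capitals (RefSeq, GRCm38.p6, 5′ to 3′ on the strand of the gene). H2-Aa is on the minus strand (chr17:34287824-34287973), H2-Eb1 (chr17:34305717-34305866) and H2-DMb1 (chr17:34153041-34153190) on the plus strand.
H2-Aa: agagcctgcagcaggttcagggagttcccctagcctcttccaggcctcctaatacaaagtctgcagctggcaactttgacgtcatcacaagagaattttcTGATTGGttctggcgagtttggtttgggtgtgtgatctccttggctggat
H2-Eb1: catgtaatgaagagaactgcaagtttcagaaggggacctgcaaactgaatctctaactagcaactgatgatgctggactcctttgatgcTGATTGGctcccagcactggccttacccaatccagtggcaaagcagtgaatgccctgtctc
H2-DMb1: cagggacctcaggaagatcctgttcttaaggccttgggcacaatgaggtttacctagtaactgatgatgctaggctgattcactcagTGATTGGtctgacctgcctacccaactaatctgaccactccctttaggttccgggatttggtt
The match began 50, 61 and 63 bases before the start sites of H2-Aa, H2-Eb1 and H2-DMb1. TGATTGG was found in 7.82% of all windows and in 5 of the 7 windows of the class II list (71.4%, with 6 of 9 genes matched).

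Of 24 genes of resident identity 22 were tested in cold. None passed higher and 1 of the 22 passed lower, where 1.43% of all genes were called lower, while 17 of 22 values were negative, with a median of -0.59. Members were chosen by resident genes at each temperature, which bears on these values. The gene that passed was Cd209d, which went from 743 and 514 CPM at RT to 305 and 118 in COLD (log2 fold change -1.75 ± 0.42 SE, adjusted p = 0.049). Cd209a, a related lectin that marks dendritic cells, fell from 290 and 288 CPM to 29.6 and 7.38 (-3.97 ± 0.65, adjusted p = 0.0118). Pf4, a chemokine typical of these macrophages, stood at 8033 and 5835 CPM at RT and 7873 and 9324 in COLD, and Cd163 at 588 and 503 against 352 and 465, and neither passed.

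**Figure D4:**
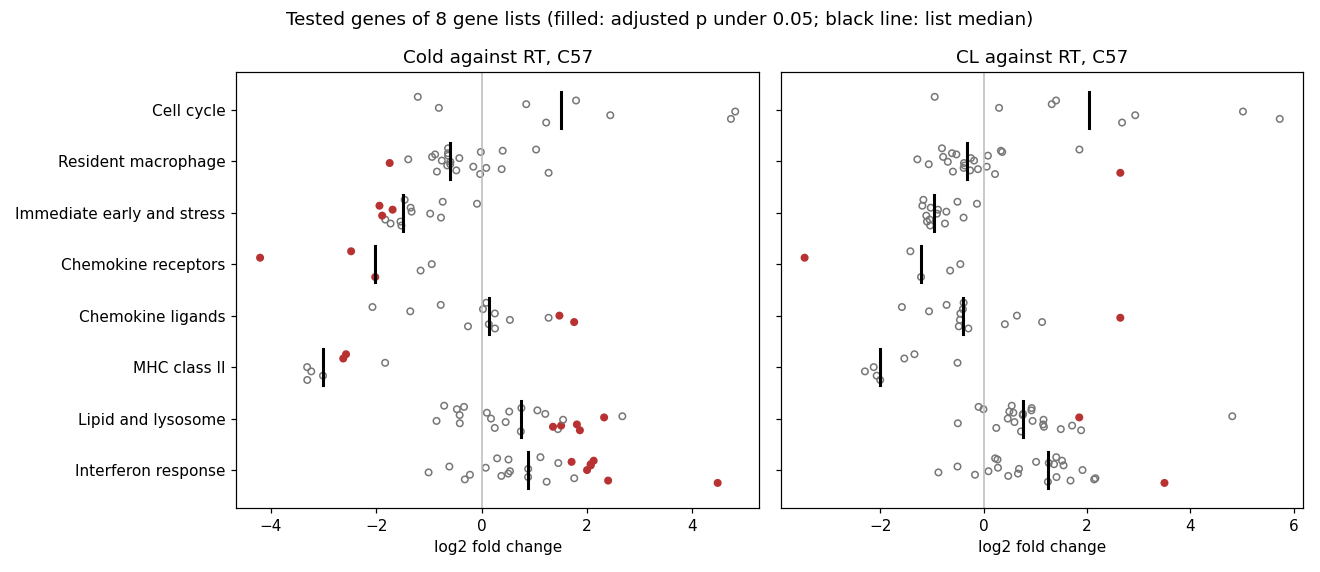
Log2 fold changes of the tested genes of 8 gene lists in members of C57 mice, COLD against RT and CL against RT, with filled points for an adjusted p under 0.05 and a black line at the list median. Class II medians lie at -3.01 in cold and -2.0 in CL, and interferon medians at 0.88 and 1.24.

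Outside the lists, the largest rises in cold by fold change included Cystm1 (3.97 and 0 CPM at RT, 55.1 and 88.5 in COLD) and Akr1b8, an aldo-keto reductase (7.95 and 0 CPM against 106 and 81.1). Both rested on few counts, at 25 against 1 for Cystm1 (28.8-fold, 95% counting interval 4.72 to 1184) and 36 against 2 for Akr1b8 (20.8-fold, 5.34 to 178). Cela1, an elastase, went from 19.9 and 39.5 CPM to 148 and 295 (2.67 ± 0.59 on the log2 scale, adjusted p = 0.0332), and Capg, an actin-capping protein, from 155 and 169 to 737 and 1202 (2.35 ± 0.34, adjusted p = 0.00942). Tppp3, a tubulin-binding protein, went from 51.7 and 62.1 CPM to 182 and 649 (2.60 ± 0.55, adjusted p = 0.0294). Ms4a4c, Hist1h2bc and Lyz1, a lysozyme, rose by 2.39, 2.39 and 2.08. None of these was on a list. In all of them both COLD values exceeded both RT values, which the rule for naming genes required.

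Several of the largest falls in cold by fold change were of genes known from neutrophils and red cells. S100a8, an alarmin of neutrophils, was at 1968 and 1441 CPM at RT, 12.7 and 7.38 in COLD and 277 and 3238 in CL (log2 fold change in cold -7.49 ± 1.14 SE, adjusted p = 0.0107). Its partner S100a9 was at 1407 and 802 CPM at RT, 16.9 and 7.38 in COLD and 284 and 1931 in CL (-6.57 ± 0.98, adjusted p = 0.0105), and both were also lower in COLD than in CL (-7.50 and -6.51, adjusted p = 0.0315 for each), the 2 genes that passed there. Retnlg, another neutrophil gene, rested on 90 counts at RT and 1 in COLD (78.0-fold, 95% counting interval 13.7 to 3116). The 7 neutrophil markers, all with a count in members, summed to 2542 to 7170 CPM over the 4 RT libraries, 38.1 to 578 in the 4 cold libraries and 681 and 5496 in CL. Monocyte markers (9 of 9 with a count) summed to 1970 to 3546 CPM at RT and 678 to 2031 in cold, but this list holds S100a8, and without it the sum was 656 to 1367 CPM at RT and 665 to 1773 in cold. Dendritic markers (9 of 9) summed to 194 to 441 CPM at RT and 22.1 to 143 in cold. This list holds Cd209a itself, which made up 290 and 288 CPM of the C57 RT sums of 425 and 441. The dendritic sum is therefore not independent of the fall of Cd209a. B cell markers (7 of 7), of a cell type that is rich in class II, summed to 322 to 591 CPM at RT and 150 to 305 in cold, without overlap. The part of these genes in the class II, receptor and Cd209a results was not tested. Hba-a2, an alpha globin chain, was called lower (adjusted p = 0.0495), but its 5717 CPM in RT replicate 2 stood against 15.9 in RT replicate 1, 4.24 and 0 in COLD, and globin genes are close copies whose reads may be shared.

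Among falls of other genes, Slc7a11, the cystine transporter, was at 91.4 and 79.1 CPM at RT and 0 in both COLD libraries, at least 10.7-fold lower with a floor of 3 counts over the group (adjusted p = 0.0118). Tfrc, the transferrin receptor, went from 187 and 90.4 CPM to 21.2 and 44.3 (-2.46 ± 0.49, adjusted p = 0.0243), the only 1 of 11 tested iron and heme genes to pass. Mmp9, a matrix metalloproteinase also abundant in neutrophils, fell in both treatments, from 616 and 412 CPM at RT to 119 and 155 in COLD (-2.17 ± 0.36, adjusted p = 0.0118) and 63.8 and 103 in CL (-2.85 ± 0.35, adjusted p = 0.00679). G0s2, an inhibitor of triglyceride breakdown, Ifitm1, Rnf2 and the immunoglobulin gene Igkc were called lower on 1 or 2 counts in COLD. Their summed counts differed 27.7-fold (95% counting interval 4.64 to 1130) for G0s2, 26.9-fold (4.48 to 1096) for Ifitm1, 11.7-fold (2.94 to 102) for Rnf2 and 10.8-fold (2.70 to 94.4) for Igkc, which did not pass with the replicate block (adjusted p = 0.0665). Gm10138, a predicted gene whose reads may belong to a copy elsewhere, was at 47.7 and 67.8 CPM at RT and 0 in both COLD libraries, at least 6.94-fold lower.

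The remaining genes that passed in CL were few. C5ar2, a receptor for the complement fragment C5a, stood at 103 and 96 CPM at RT and 13.4 and 30.4 in CL (-2.60 ± 0.46, adjusted p = 0.0493). Taf1d went from 131 and 198 CPM to 58.2 and 53.2 (-1.67 ± 0.31), and Rps12-ps3, a ribosomal pseudogene whose reads may come from its parent gene, from 127 and 73.4 to 22.4 and 26.6 (-2.28 ± 0.42). None of these 3 passed with the replicate block (adjusted p = 0.0564 for each). Without CL replicate 2 the CL count rose from 9 to 321, and without RT replicate 1 it fell to 1. Mmp9 was the gene that passed in CL whichever single library was left out.

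**Figure D5:**
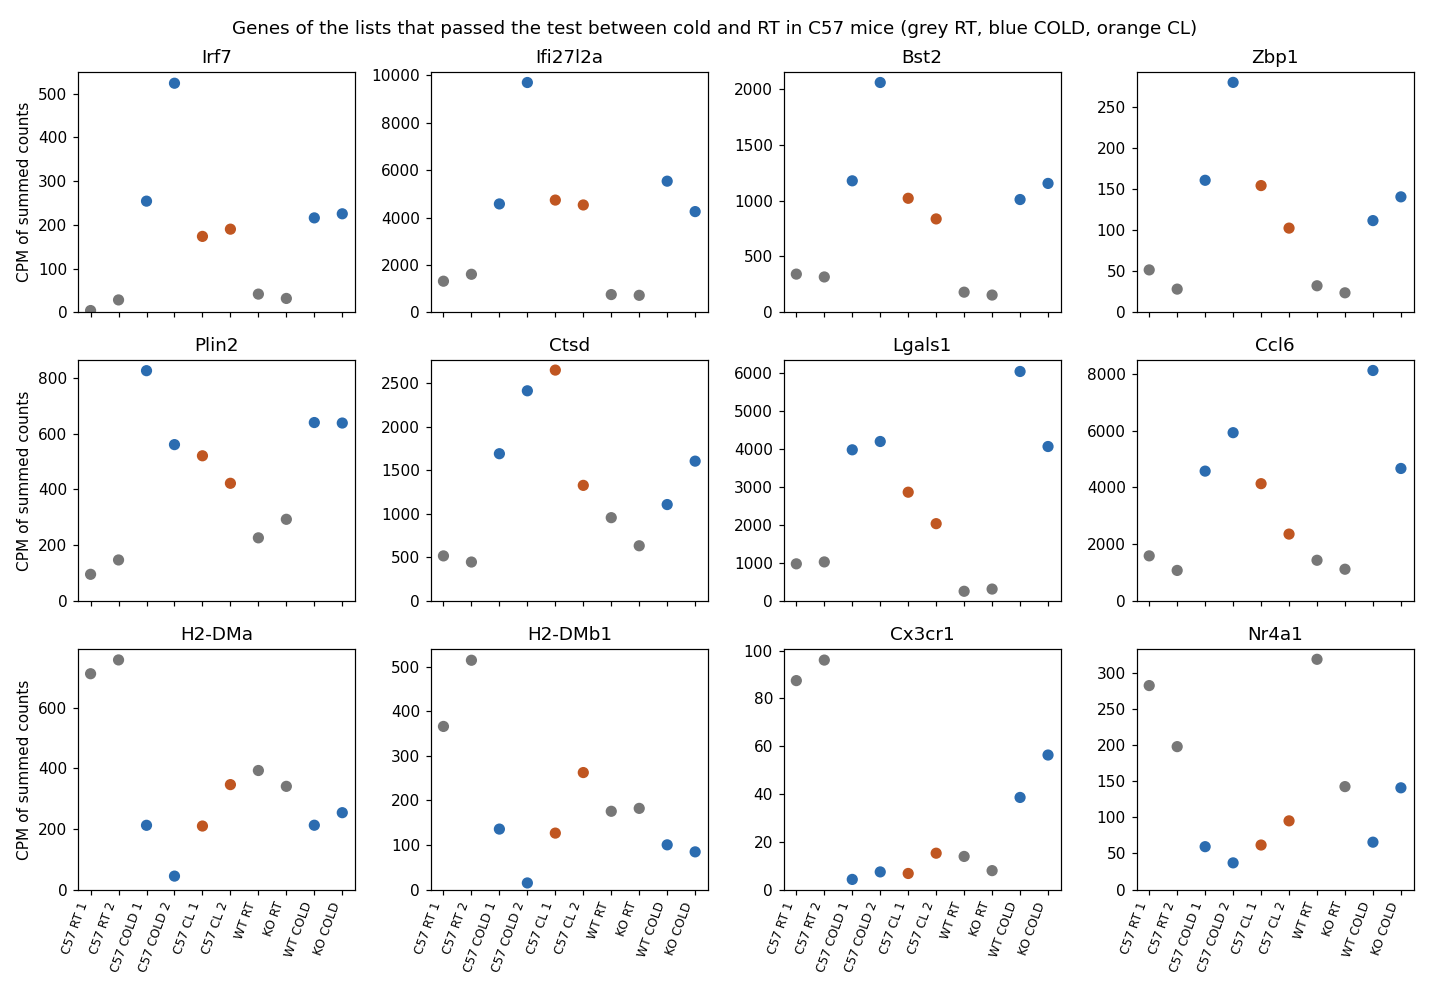
CPM of 12 list genes (vertical axis, linear from 0) in counts summed over members for each of the 10 Lin+ libraries, coloured by RT, COLD and CL. Irf7 rises from 3.97 and 28.2 CPM at RT to 254 and 524 in COLD in C57 mice, and H2-DMa falls from 711 and 757 to 212 and 44.3.

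To see where members responded unlike their neighbours, the response to each treatment was compared between members and other macrophages of the same C57 libraries, in a class by treatment term with the library as a block. Of 10325 genes, 171 differed in cold (1.66%), 109 with a higher change in members (1.06%) and 62 with a lower one (0.6%), and 42 differed in CL (0.407%). With the library block left out, 15 and 0 genes passed. The spread in the blocked fit is shared among genes, so its p-values need not measure each gene's own spread between pools. Other macrophages held many lipid-associated cells in cold, so the comparison was repeated against other macrophages without a lipid-associated sum of 4, where 190 and 31 of 10336 genes passed.

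For resident identity, 15 of 24 genes had a higher change in members in cold and none a lower one, with a median difference of 1.28 against 0.03 over all genes. Against cells without lipid-associated genes, 13 of 24 did, and Cd209d, Cd209b, F13a1 and Fcrls were not among them. The rule was applied at each temperature, so that members had to carry resident genes in COLD and other macrophages had to lack them, and a cell that lost such genes would leave the members. The differences of identity genes are therefore conditioned by the rule, and they and their p-values are given as a description. Cd163 fell in other macrophages from 160 and 126 CPM at RT to 5.62 and 3.52 in COLD, and differed by 4.38 ± 0.27 (SE) on the log2 scale (adjusted p = 8.93e-54), or 3.22 against those without lipid-associated genes. Timd4 in other macrophages went from 18.1 and 10.6 CPM to 0.672 and 0.088 (difference 4.52 ± 0.58, adjusted p = 3.36e-12, and 3.15 without lipid-associated cells). Cbr2, a carbonyl reductase, differed by 2.16 ± 0.25 (adjusted p = 1.52e-15, and 2.01 without lipid-associated cells), from 254 and 264 CPM to 90.0 and 70.9 in other macrophages against 600 and 723 to 788 and 1225 in members. Ccl8 differed by 1.83 ± 0.29 (adjusted p = 5.57e-08, and 2.71 without lipid-associated cells), and Pf4 by 1.47 ± 0.29 (adjusted p = 4.38e-05, and 2.20). In CL, Ccl8 rose in other macrophages too, from 252 and 214 CPM at RT to 2843 and 945. Its difference between the classes did not pass there. In cold, 7 of 19 chemokine ligands had a higher change in members and none a lower one, and 4 had a higher one against cells without lipid-associated genes.

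Class II genes had a lower change in members than in other macrophages for 6 of 9 genes, with a median of -1.92, and for 6 of 9 against cells without lipid-associated genes, with a median of -2.77. H2-Aa in other macrophages went from 9893 and 12767 CPM at RT to 3236 and 3261 in COLD, a change of -1.78, and the difference was -2.34 ± 0.33 (SE, adjusted p = 1.14e-09), or -3.39 against cells without lipid-associated genes. H2-DMa, which was not at 0 in any library, differed by -1.06 ± 0.30 (adjusted p = 0.0259) and by -1.80 in the second comparison. The values of members at 0 in COLD replicate 2 enter the H2-Aa difference, whose SE is well below that of the cold change in members alone. Its p-value therefore need not hold the gap between the COLD libraries.

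Among lipid and lysosome genes, Ctsd in other macrophages went from 367 and 345 CPM at RT to 5166 and 4750 in COLD, a change of 3.82, and differed by -1.83 ± 0.29 (SE, adjusted p = 1.39e-07). Against other macrophages without lipid-associated genes, this difference was -0.41 (adjusted p = 0.741). Fabp5, a fatty acid binding protein, went from 160 and 96.8 CPM to 2489 and 2222 in other macrophages and from 51.7 and 45.2 to 50.8 and 0 in members, and its difference remained at -3.62 in the second comparison. In all, 8 of 26 lipid and lysosome genes had a lower change in members, and Fabp5 and Lipa did against non-lipid cells. There Fabp4 had a higher change (1.75, adjusted p = 2.42e-05 by edgeR), but it is a gene on which the removal of cell-free RNA was estimated in each library, so its level depends on that correction. The call for Ctsl, a lysosomal protease, turned from a lower change against all other macrophages (-0.95 ± 0.28 SE, adjusted p = 0.0475) to a higher one (1.04, adjusted p = 0.0163). Irf7 rose in both classes, from 45.7 and 60.3 CPM to 435 and 540 in other macrophages, and the difference of 1.37 ± 0.53 did not pass (adjusted p = 0.274), nor did that of 1.03 against non-lipid cells (adjusted p = 0.60). Ifi27l2a rose more in members (1.30 ± 0.28, adjusted p = 6.30e-04), though not against non-lipid cells (0.75, adjusted p = 0.28). The interferon list as a whole went the other way. Of its 28 genes 20 had negative differences and 8 positive ones, with a median of -0.83. Ifi27l2a was the only gene of the list to pass higher, while Rsad2 and Ifi211 passed lower. Against non-lipid cells Ifi211, Isg15, Ifi204 and Ifi209 were among the genes that passed lower.

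No gene was called between the KO and WT members. In the fit of all 10 Lin+ libraries with edgeR, 0 of 4918 genes differed between KO and WT (166 at an unadjusted p under 0.05), and 0 differed with the 4 libraries of the line alone (177 unadjusted). Each genotype had 1 library per temperature. Ccl8 was at 152 CPM in WT and 1151 in KO at RT, and at 940 and 2421 in cold. By cells the genotypes lay closer, with a UMI of Ccl8 in 15% (WT) and 20.5% (KO) of thinned members at RT. In cold the shares were 43.3% and 50%. Cold against RT in this line differed in 1763 of 4918 genes (35.8%), where kit version changed together with temperature. Irf7 (41.6 and 31.6 CPM at RT, 216 and 225 in cold) and H2-DMa (392 and 340 CPM, 212 and 253) lay in the order of the C57 libraries, and so did Ifi27l2a (748 and 716 CPM, 5535 and 4251) and Bst2 (180 and 154 CPM, 1010 and 1154). Other genes did not. Cx3cr1 was among the exceptions, since its 38.5 and 56.3 CPM in cold exceeded the 13.9 and 7.91 CPM of the RT libraries. Wdr89, called lower in C57 mice, stood at 13.9 and 11.9 CPM at RT and 88.6 and 84.4 in cold. Ifit1 overlapped, at 69.3 and 11.9 CPM at RT and 61.7 and 28.1 in cold. Of 25 tested interferon genes in this line, 15 values were positive and 10 negative, with 9 called higher and 1 lower. Among all genes 18.2% were called higher and 17.7% lower. The response to cold differed between the C57 mice and the Adrb1 line in 176 genes (3.58%).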

How the data were processed

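The values deposited for the 20 libraries are expected counts. The authors counted UMIs with Cell Ranger 3.0.1 on mm10 and removed an estimate of cell-free RNA with SoupX, for which Fabp4 and Car3 served as guide genes. The correction leaves fractions and can set a gene to 0 in a cell, so the depth given is that of corrected counts, and sums per library were rounded to whole numbers. Intervals cover counting error only. Members and gene lists were chosen with earlier results of these data known.

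Each cell was gated on its corrected counts with Python 3.11.15, numpy 2.4.6 and scanpy 1.11.5, and a UMI was counted as found at 0.5 or more. Doublets were scored with Scrublet and kept, and an alternative left out the top 6%. Sums over members were tested with edgeR 4.0.16 (R 4.3.3, limma 3.58.1, filterByExpr, TMM, glmQLFit, glmQLFTest), without a block, on the C57 Lin+ libraries, and in a fit of all 10 Lin+ libraries for the Adrb1 line. Benjamini-Hochberg adjustment covered every tested gene, a gene passed below 0.05, and the 13 genes of the rule were left without a test. CPM values divide by the summed counts of the same cells. Shares were compared by exact permutation over libraries (scipy 1.17.1). DESeq2 1.42.0, other filters and gates, and leaving out libraries served as alternatives. Scripts were tested on simulated data.

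Genes were named when they passed, had at least 20 CPM in the group where they were higher and did not overlap between the groups, the 12 with the largest fold change in each direction. Beside them, genes of the lists were named by fold change and then by CPM, and other genes of the lists by choice after their values were seen. Replicate libraries were not copies, since the chi-square of their counts was 2.59 to 9.58 for each degree of freedom. Per the study's methods, C57 libraries with the same number belong to 1 replicate experiment, so the number pairs them by design, and the fit with the replicate number as a block is given beside each result whose call it changes. Deviations of same-numbered libraries correlated at 0.0207 for RT and COLD, 0.125 for RT and CL and -0.0266 for COLD and CL over 2933 genes. Positions and promoter windows are from RefSeq on GRCm38.p6. Some results are not reported here.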

Additional observations from a re-analysis of the deposited data

Results flagged for a closer look

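In 18 groups of libraries, over values other than those of the genes of the rule, the highest or lowest library was examined for its gap to the others, a check that chance alone meets in about 1 in 20 groups. Ccl8 in members of the WT RT library, at 152 CPM, stood apart from the other RT libraries at 1022 to 1181 CPM. By cells, 15% of its thinned members had a UMI of Ccl8, against 20.5% in KO RT and 38 and 52.3% in C57 RT.

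The response to cold differed between members and other macrophages of the same C57 libraries in 171 genes, and the response to CL in 42 genes, by the class by treatment term of edgeR. The response to cold differed between C57 mice and the Adrb1 line in 176 of 4918 genes (3.58%), 33 with a higher and 143 with a lower change in C57 mice. Sex, line, tamoxifen and, within the Adrb1 line, the kit all differ between these lines and cannot be told apart.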

How the results depend on the processing

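Of the results with a test, the lower share of members in cold kept its direction in every alternative run, from -1.37 to -0.982 percentage points with 1 C57 library left out. The exact p rose above 0.05 in C57 mice alone (-1.12) and in the Adrb1 line alone (-1.20), where 2 against 2 libraries cannot reach it, and without COLD replicate 1 or 2 (p = 0.0571 for each). With labels exchanged only within each line, an alternative chosen after seeing the data, the p was 0.0556 for the share of Lin+ cells (-1.16), for that of macrophage-gated cells (-6.16) and for the MHC class II share. The share in CL against RT ranged from -0.721 (without CL replicate 1) to 2.85 points with 1 library left out, and turned to -1.06 as a share of macrophage-gated cells. The Timd4 share in cold turned to 0.54 points higher in C57 mice alone. The counts of genes, in the order COLD against RT, CL against RT and COLD against CL, were 104, 9 and 2. They became 297, 188 and 27 without a filter on low counts, and 0, 2 and 0 with the rule applied to cells thinned to 1500 UMIs, which also leaves fewer members (164, 115 and 34 unadjusted). With the same number of cells in each library they were 0, 0 and 0 by edgeR (261, 131 and 67 at an unadjusted p under 0.05). Leaving out 1 library gave 13 to 65 genes for cold, 1 to 321 for CL (1 without RT replicate 1, 20 without RT replicate 2 and 321 without CL replicate 2) and 0 to 24 for COLD against CL (8 without COLD replicate 1, 0 without COLD replicate 2 with 177 unadjusted, 16 without CL replicate 1 and 24 without CL replicate 2). With a resident sum of at least 6, 24 genes passed in CL and 1 between COLD and CL. In cold 134 then passed, among them 79 of the 95 genes still tested of the 104. DESeq2 gave 113, with 58 of the 104 among them, and 21 and 5, and 16 passed in CL without mitochondrial genes, and 0 between COLD and CL without the top doublet scores (169 unadjusted). Averaging the cold effect over both lines gave 1769. With a replicate block, 99, 5 and 7 genes passed, and 85 of the 104, 4 of the 9 and 2 of the 2 were among them. The block changed no other call on a gene named for these comparisons than those given beside the results and those of Retnlg and Hba-a2, which passed lower in COLD than in CL with it. Without the library block, the response differences fell to 15 genes in cold and 0 in CL (730 and 381 at an unadjusted p under 0.05). Of the 43 genes named in cold, 74 of 172 values with 1 library left out kept the call and none changed sign, and Irf7, S100a8, S100a9 and Cd209a kept it throughout. The cause of these shifts was not tested. The cold libraries held 18 to 46 members each, and calls on 1 or 2 counts in a group rest on wide counting intervals.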

Other observations

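In members of the Adrb1 line, further groups moved between RT and cold, where kit version changes as well. Of 15 tested chemokine ligands 8 were higher and 2 lower in cold, with a median log2 fold change of 1.75 against -0.08 over all genes, of which 18.2% were called higher and 17.7% lower. Ccl12, a monocyte attractant, stood at 120 CPM in WT and 87.0 in KO at RT, and at 1916 and 2243 in cold (log2 fold change 4.28, adjusted p = 1.64e-05 by edgeR's quasi-likelihood test). Ccl7, of the same family, stood at 106 and 198 CPM at RT and at 1719 and 2562 in cold (3.79), and Ccl2 at 503 and 297 CPM against 3095 and 4007 (3.13). In the C57 mice, where the kit was the same, the values of Ccl12, Ccl7 and Ccl2 in cold were 0.25, 0.54 and 0.25, and none passed.

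Cell cycle genes were seen in some members. A cell with at least 2 of 16 such genes was found among 13.9 and 9.09% of thinned members at RT, 18.6 and 10% in COLD and 29.2 and 9.30% in CL in C57 mice, and in the Adrb1 line among 7.5% (WT) and 2.27% (KO) at RT and 43.3% (WT) and 12.5% (KO) in cold. T cells gave 11.3 to 42.6% by the same count. Over 4 cold and 4 RT libraries the means were 21.1% ± 15.3 and 8.20% ± 4.80 (SD), and the exact permutation test, two-sided, gave p = 0.114. Stmn1, which destabilises microtubules and is high in dividing cells, stood at 47.7 and 45.2 CPM in members at RT, 330 and 258 in COLD and 677 and 106 in CL, and did not pass in cold (adjusted p = 0.0677 by edgeR) or in CL (adjusted p = 0.0699). Of 8 cell cycle genes tested in C57 mice, 6 had a positive log2 fold change in cold (median 1.51), and 0 passed by edgeR or DESeq2. Without a filter on low counts 5 of 16 passed higher, where 126 of all 13513 genes did. With a replicate block 2 of 8 passed higher by edgeR, Stmn1 (adjusted p = 0.0414) and Pclaf (adjusted p = 0.029), where 41 of all 4057 genes did. In the Adrb1 line, with the change of kit, 9 of 15 were higher in cold and none lower, where 18.2% of all genes were called higher. The median was 2.69, and Stmn1 was among the 9.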
